A study of Mus musculus with 2 samples.

Results

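The genes described here encode Toll-like receptors and the inflammasome, the machinery with which cells of the meninges sense microbial products and damage. The 10 members were taken by gene symbol from the 32285 genes of the deposited tables: the receptor genes Tlr2, Tlr4, Tlr7, Tlr9 and Tlr13, the co-receptor gene Cd14, the adaptor gene Myd88, and the inflammasome genes Nlrp3, Pycard and Casp1. All 10 were found, and all 10 had UMIs (unique molecular identifiers, which count captured mRNA molecules) in both libraries.

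Single-cell RNA-seq had been done on dorsal meninges of male C57BL/6 mice, given in the labels as 10 weeks of age in one field and 10 to 12 weeks in another. Each group was a single library: Sham joined the meninges of 5 mice, 1 week past a sham operation, and TBI those of 5 mice, 1 week past a mild blow to the closed skull. DAPI-negative single cells had been sorted, with no gate for a cell type. Since each group was 1 pool, no spread between mice could be measured, no test between Sham and TBI was made, and every interval below covers counting error alone.

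Toll-like receptors at the cell surface bind parts of microbial walls, while those in endosomes bind nucleic acids, and most of them signal through the adaptor MYD88 to transcription factors that switch on cytokine genes. The inflammasome is a cytosolic complex in which a sensor such as NLRP3 joins the adaptor ASC, the product of Pycard, to the protease caspase-1, which cleaves cytokine precursors and the pore protein gasdermin D. Meninges hold resident macrophages, dendritic cells and lymphocytes, and in such border tissues macrophages are known for a wide set of these receptors.

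After filtering, 2043 Sham cells with 7866611 UMIs and 3773 TBI cells with 13940740 UMIs remained, with a median of 2764 and 2663 UMIs per cell, and 20 barcode sequences occurred in both libraries. Cells were clustered without the 10 members and named from marker genes, which gave 19 named classes and 2 clusters that stayed unnamed, 21 groups in all. The macrophage-like class held 362 Sham and 780 TBI cells with 1574201 and 3565713 UMIs, and 1 of its clusters had all 15 macrophage markers among its 100 leading genes. The fibroblast-like class, the usual stroma of this tissue, held 65 Sham and 450 TBI cells, and pineal gland-like and choroid plexus-like cells were also found in both libraries. An unnamed cluster, led by Snhg11 and Foxp2, held 52 Sham and 307 TBI cells. It was joined to the fibroblast-like class only as an alternative, and what its cells are was not tested. Levels are UMIs of a gene per 1000000 UMIs of a class (CPM), with the 95% exact Poisson interval after the value. Because transcripts differ in length and in capture, levels are ranked between classes for 1 gene at a time.

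The promoters of the inflammasome genes and of Tlr9 are shown first. In these genes the RefSeq start lay within 1 base of the start in the annotation of the counts. They are the bases up to the annotated start of Nlrp3 (chr11:59541319-59541567, plus strand), Casp1 (chr9:5298267-5298516, plus strand), Pycard (chr7:127993868-127994117, minus strand) and Tlr9 (chr9:106222348-106222597, plus strand), from RefSeq on GRCm38.p6, 5′ to 3′ on the strand of the gene. Capitals mark GAGGAA, the core bound by the myeloid and B cell factor PU.1, on either strand.
Nlrp3: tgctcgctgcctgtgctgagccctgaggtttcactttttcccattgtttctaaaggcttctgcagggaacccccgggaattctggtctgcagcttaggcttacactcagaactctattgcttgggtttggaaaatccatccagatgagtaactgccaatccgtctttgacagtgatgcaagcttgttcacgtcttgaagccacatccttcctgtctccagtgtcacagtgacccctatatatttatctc
Casp1: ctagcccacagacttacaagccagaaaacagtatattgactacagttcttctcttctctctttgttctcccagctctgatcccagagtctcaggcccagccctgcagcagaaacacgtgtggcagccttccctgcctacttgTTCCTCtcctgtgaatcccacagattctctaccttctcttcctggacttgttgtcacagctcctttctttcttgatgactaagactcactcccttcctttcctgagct
Pycard: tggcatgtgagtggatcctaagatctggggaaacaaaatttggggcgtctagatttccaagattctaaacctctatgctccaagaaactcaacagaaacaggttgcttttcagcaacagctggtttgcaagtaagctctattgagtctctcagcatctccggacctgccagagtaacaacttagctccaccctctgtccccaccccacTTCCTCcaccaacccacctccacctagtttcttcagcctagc
Tlr9: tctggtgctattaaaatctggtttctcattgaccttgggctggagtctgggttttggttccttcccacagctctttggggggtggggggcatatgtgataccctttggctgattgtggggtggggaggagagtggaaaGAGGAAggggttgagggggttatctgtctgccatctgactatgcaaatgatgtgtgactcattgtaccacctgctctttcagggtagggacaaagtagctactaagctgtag

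The core was found in the stretches of Casp1, Pycard and Tlr9 and not in that of Nlrp3. In RefSeq windows of 300 bases, 250 before and 50 after the start, 7 of the 10 members had a window, and GAGGAA was in 4 of these 7, against 28.3% of all 32851 windows. Both strands were searched. A longer interferon response motif, searched likewise, was in 1 of the 7, the window of Myd88, against 3.44% of all windows. The RefSeq start of that window lay 1393 bases from the start of Myd88 in the annotation of the counts. A kappa B motif was in 0 of the 7, against 1.63%. These matches describe letters in a window and say nothing on whether a factor bound there.

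Among the surface receptors, Tlr2 (chromosome 3, 83836272 to 83841767, minus strand) encodes the receptor for bacterial lipopeptides. Its level was highest in macrophage-like cells, with 126 CPM (109 to 145, 198 UMIs) in Sham and 128 CPM (116 to 140, 455 UMIs) in TBI. Over both libraries the macrophage-like level of 127 CPM did not overlap that of the next class, monocyte-like cells at 69.5 CPM (44.5 to 103). Dendritic-like cells stood at 29.3 CPM in Sham and 36.02 CPM in TBI. Of all Tlr2 UMIs, macrophage-like cells held 68.8% in Sham and 73.7% in TBI.

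Cd14, on chromosome 18, encodes the co-receptor that hands bacterial lipopolysaccharide to TLR4. Of the 10 genes it was the one most concentrated in a single class: macrophage-like cells held 91.3% (88.7 to 93.4) of its UMIs in Sham and 92.0% (90.5 to 93.3) in TBI. They stood at 339 CPM (310 to 369) in Sham and 380.0 CPM (360 to 401) in TBI. Neutrophil-like cells, the next class, stood at 79.2 CPM (39.6 to 142) over both libraries, and monocyte-like cells at 23.2 CPM (10.0 to 45.6). Cells of unrelated classes carried few Cd14 UMIs, and some of these sat in predicted doublets, 2 cells read as 1. All 7 Cd14 UMIs of the TBI T cell-like class were in 3 predicted doublets, and all 10 of the choroid plexus-like class were in 1. The members were not left out of the doublet prediction, so Cd14 itself could have helped to mark these cells.

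Tlr4 (chromosome 4, 66827584 to 66930284, plus strand) encodes the lipopolysaccharide receptor and was also found outside the immune classes, in fibroblast-like and endothelial-like cells. Macrophage-like cells gave 40.7 CPM (31.3 to 51.9, 64 UMIs) in Sham and 30.6 CPM (25.1 to 36.9, 109 UMIs) in TBI. Fibroblast-like cells gave 15.0 CPM (4.09 to 38.4, 4 UMIs) in Sham and 22.2 CPM (15.7 to 30.7, 37 UMIs) in TBI. Over both libraries the macrophage-like level was 33.7 CPM (28.8 to 39.1) and the fibroblast-like level 21.2 CPM (15.2 to 28.8), so that the intervals met at 28.8 CPM. The endothelial-like level was 12.3 CPM (7.68 to 18.6). Neutrophil-like and pericyte or smooth muscle-like cells, at 4 UMIs each, and monocyte-like cells, at 6, had intervals that overlapped that of macrophage-like cells.

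**Figure D1:**
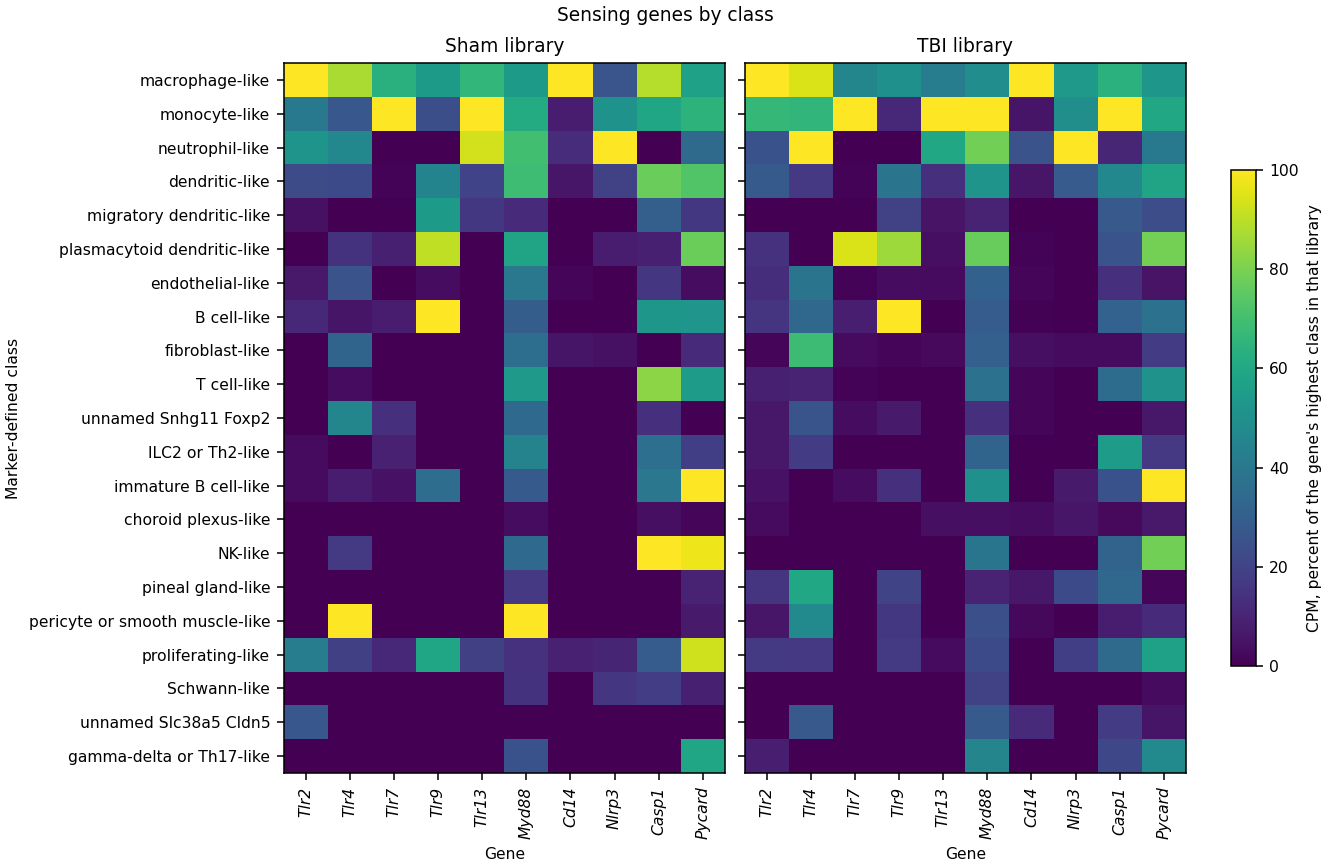
Heat map of the 10 sensing genes (columns) in the 21 groups of cells (rows), Sham on the left and TBI on the right; colour gives a gene's CPM as a percent of its highest class in that library, so colours compare classes within a gene. Tlr2 and Cd14 peak in macrophage-like cells in both libraries, Tlr9 in B cell-like cells and Pycard in immature B cell-like cells, while the pericyte or smooth muscle-like peaks of Tlr4 and Myd88 in Sham rest on 2 and 4 UMIs.

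The endosomal receptors each had an order of their own. Tlr7 (chromosome X, 167304929 to 167330558, minus strand), the receptor for single-stranded RNA, was highest in monocyte-like cells at 89.7 CPM (61.0 to 127, 31 UMIs over both libraries), followed by plasmacytoid dendritic-like cells at 64.3 CPM (42.4 to 93.6, 27 UMIs) and macrophage-like cells at 46.9 CPM (41.2 to 53.2, 241 UMIs). The intervals of the first 2 overlapped, and that of the monocyte-like class lay above that of macrophage-like cells. B cell-like cells came next at 7.20 CPM, well below. In the conventional dendritic-like class 3 UMIs of Tlr7 were found, 1 in Sham and 2 in TBI.

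Tlr9 (chromosome 9, 106222598 to 106226883, plus strand), the receptor for unmethylated CpG DNA, was highest in B cell-like cells, with 52.5 CPM (39.99 to 67.8, 59 UMIs) in Sham and 47.4 CPM (33.7 to 64.8, 39 UMIs) in TBI. Plasmacytoid dendritic-like cells, at 42.9 CPM (25.4 to 67.8) over both libraries, overlapped them. Macrophage-like cells at 25.3 CPM (21.1 to 30.03) and dendritic-like cells at 20.8 CPM (16.0 to 26.5) followed and overlapped each other. T cell-like cells held 0 Tlr9 UMIs in both libraries, where 3 counts would be 4.596 CPM in Sham and 3.07 CPM in TBI.

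Tlr13 (chromosome X, 106143204 to 106160493, plus strand), the receptor for bacterial ribosomal RNA, had a myeloid order: monocyte-like cells at 81.1 CPM (53.9 to 117), neutrophil-like cells at 57.6 CPM (24.9 to 114, 8 UMIs) and macrophage-like cells at 40.9 CPM (35.5 to 46.8). Dendritic-like cells followed at 13.1 CPM (9.41 to 17.8), with no overlap with macrophage-like cells. In B cell-like and T cell-like cells the gene had 0 UMIs in both libraries. Over the 21 groups its log2 levels ran with those of Nlrp3 at a Pearson r of 0.91, the highest among the 45 pairs of members. The groups share depth and library within each gene, so this r is a description.

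Myd88 (chromosome 9, 119335934 to 119341411, minus strand), the shared adaptor, was found in 20 of the 21 groups in Sham and in all 21 in TBI. Monocyte-like cells stood at 78.2 CPM (51.5 to 114), dendritic-like cells at 56.3 CPM (48.3 to 65.2) and macrophage-like cells at 48.1 CPM (42.2 to 54.4). Endothelial-like cells at 32.3 CPM and fibroblast-like cells at 30.1 CPM also held it. The gene overlaps Acaa1a and Slc22a14 in the annotation, and how reads in the overlap were assigned was not tested.

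The inflammasome genes differed in breadth. Nlrp3 (chromosome 11, 59541568 to 59566956, plus strand), the sensor, was held almost wholly by myeloid classes: 47.4% of its 76 Sham UMIs and 68.0% of its 122 TBI UMIs were in macrophage-like cells, and 31.6% and 17.2% in dendritic-like cells. Neutrophil-like cells had the highest level, 57.6 CPM (24.9 to 114), on 8 UMIs, followed by monocyte-like cells at 31.8 CPM and macrophage-like cells at 23.2 CPM (19.2 to 27.7). In B cell-like, T cell-like, NK-like and endothelial-like cells Nlrp3 had 0 UMIs in both libraries. For B cell-like cells 3 counts would be 2.67 CPM in Sham and 3.65 CPM in TBI.

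Pycard (chromosome 7, 127989708 to 127993867, minus strand), the adaptor, was by contrast broad. It was highest in immature B cell-like cells, at 315 CPM (252 to 390) in Sham and 320 CPM (260 to 389) in TBI. NK-like cells at 283 CPM (236 to 338) and plasmacytoid dendritic-like cells at 250.1 CPM (205 to 303) overlapped that class. Macrophage-like cells came after 6 other classes, at 173 CPM (162 to 185), and overlapped T cell-like cells at 167 CPM (148 to 189). Casp1 (chromosome 9, 5298517 to 5307265, plus strand), the protease, lay between the sensor and the adaptor in breadth: monocyte-like cells at 75.3 CPM (49.2 to 110), macrophage-like cells at 65.4 CPM (58.6 to 72.7), NK-like cells at 57.1 CPM (37.0 to 84.3), dendritic-like cells at 52.4 CPM and T cell-like cells at 46.6 CPM, with fibroblast-like cells at 2.59 CPM.

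**Figure D2:**
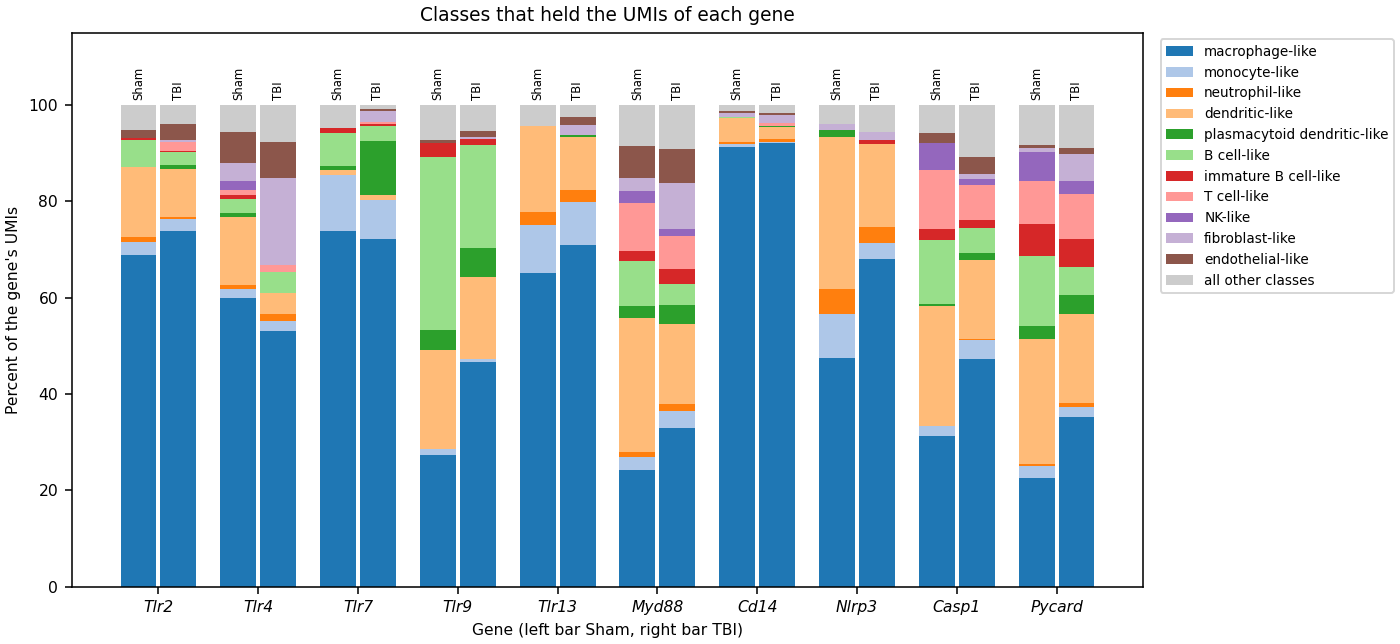
Stacked bars of where each gene's UMIs were found: every bar is 1 gene in 1 library (Sham left, TBI right), the vertical axis is the percent of that gene's UMIs, and colours are classes. Macrophage-like cells fill 91.3% and 92.0% of the Cd14 bars and 22.5% and 35.3% of the Pycard bars, with B cell-like cells at 35.8% and 21.4% of the Tlr9 bars.

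Over both libraries, 8 of the 10 members had their highest level in macrophage-like, monocyte-like or neutrophil-like cells, Tlr9 and Pycard being the others, where the same was so for 8.21% of all 13086 genes with at least 50 UMIs. Of the other genes of the pathway with that many UMIs, it was so for 4 of 7 other Toll-like receptors, 4 of 8 receptor partners and chaperones, 5 of 16 adaptors and kinases, 5 of 10 other inflammasome sensors, 5 of 12 inflammasome partners and effectors and 4 of 9 induced targets. It was so for 0 of 7 negative regulators and 1 of 7 transcription factors. Unc93b1, the chaperone that carries nucleic acid receptors to endosomes, was highest in macrophage-like cells at 1193 CPM and in plasmacytoid dendritic-like cells at 1034 CPM. Ly86, the partner of the TLR-like receptor CD180, was highest in macrophage-like cells at 988 CPM. Il1b, whose precursor caspase-1 cleaves, stood at 742 CPM in neutrophil-like cells, where Nlrp3 was also highest, and at 111 CPM in macrophage-like cells.

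The genes with the most similar order over the 21 groups were named for each member by Pearson r of log2(CPM + 10), as a description. For Tlr2 these were Fcgr4 (0.89), Gm38843 (0.88) and Cd300c2 (0.85), and for Cd14 Gm38843 (0.89), Ccl2 (0.86) and Siglece (0.82). For Tlr4 these were Plau (0.85), Fos and Ap2a2 (both 0.81). For Tlr7 these were Lair1, Ifi207 and Hpse (each 0.82), and for Tlr9 Fgd2 (0.94), Rnase6 (0.91) and Unc93b1 (0.90). Unc93b1 was thus both a listed partner of Tlr9 and among its nearest genes in order. Tlr13 had Sirpb1b (0.98), Gm36161 and Klra2 (both 0.96), and Nlrp3 had Igsf6 (0.95), Pilrb2 and Klra2 (both 0.93). Myd88 had Tln1 (0.85), Ptpn1 (0.83) and Sft2d1 (0.82). Casp1 had Rps29 (0.85), Rps13 (0.83) and Il10ra (0.83), and Pycard had Coro1a (0.92), Cmtm7 (0.92) and Laptm5 (0.91).

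In the comparison of TBI with Sham, none of the 10 members differed by 1.5-fold or more in macrophage-like cells. A gene was counted where it had at least 20 UMIs over both libraries, and the log2 ratio of CPM with 0.5 UMIs added is given with its 95% exact binomial interval. All 10 members met that minimum, 0 were higher and 0 were lower in TBI, where 7.55% of 9807 genes were past 1.5-fold higher and 4.68% lower. The members' median log2 ratio was -0.08, beside 0.02 for all these genes.

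The individual ratios in macrophage-like cells ran from -0.42 (-0.87 to 0.06) for Tlr4 to 0.17 (0.02 to 0.31) for Cd14. Cd14 was the only member whose interval left out 0, and its fold was 1.12. Tlr2 at 0.02 (-0.22 to 0.27), Nlrp3 at 0.01 (-0.56 to 0.63), Casp1 at -0.07 (-0.40 to 0.28) and Pycard at -0.10 (-0.30 to 0.11) were near 0. Tlr7 stood at -0.07, Myd88 at -0.12, Tlr9 at -0.27 and Tlr13 at -0.28. Within counting error, the intervals of Tlr2, Tlr7, Myd88, Cd14, Casp1 and Pycard held no 1.5-fold difference, while those of Tlr4, Tlr9, Tlr13 and Nlrp3 did. The count of 0 changed under 2 alternatives, for which no share of all genes is given. With each cell thinned to 1000 UMIs, which also left out shallower cells, Tlr2 was past 1.5-fold higher at 0.76 and Tlr9 past it lower at -0.78, and as a mean over cells Tlr4 was past it lower at -0.62, with Tlr2 at 0.38. Nlrp3 gave 1.39 after thinning, with UMIs left in 2 of 262 Sham and 16 of 661 TBI cells.

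**Figure D3:**
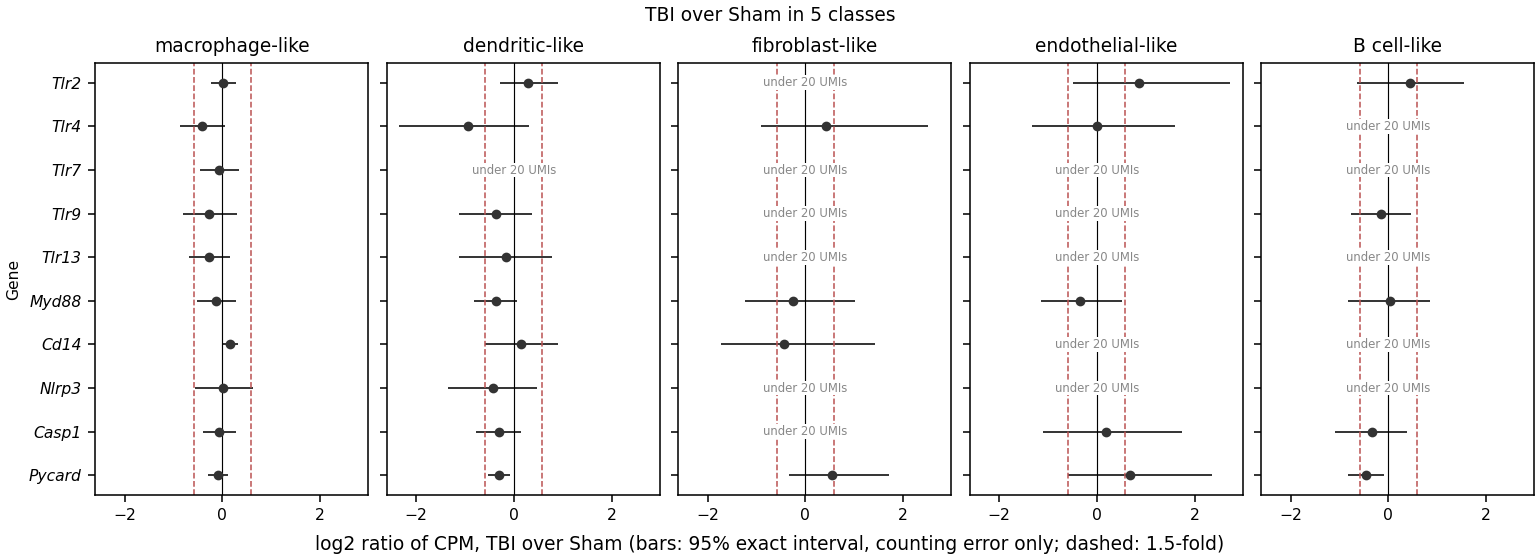
Log2 ratio of CPM, TBI over Sham (horizontal axis), for each sensing gene (vertical axis) in 5 classes; points are ratios, bars their 95% exact intervals for counting error only, dashed lines 1.5-fold, and genes under 20 UMIs are marked as such. In macrophage-like cells all 10 points lie between the dashed lines, from -0.42 to 0.17.

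The share of macrophage-like cells with at least 1 UMI of a member was also given by depth, because the median macrophage-like cell held 2235.5 UMIs in Sham and 3927.5 in TBI. Before thinning, Cd14 was found in 45.0% (39.8 to 50.3) of Sham and 56.7% (53.1 to 60.2) of TBI cells. With each cell thinned to 1000 UMIs, 262 Sham and 661 TBI cells stayed and the shares were 21.0% (16.2 to 26.4) and 26.5% (23.2 to 30.01), which overlap. Tlr2 was found in 7.25% (4.42 to 11.1) and 13.01% (10.54 to 15.8) of thinned cells, which overlap too. The intervals of shares take the cells of 1 pool as draws and hold no spread between mice. Nlrp3 was found in 0.763% (0.0926 to 2.73) and 2.42% (1.39 to 3.90) of them, near the level of 1 UMI. T cell-like cells are a class that should lack Cd14. There Cd14 was found in 0 of 174 Sham cells, which allows up to 1.72% by a limit of 3 cells. In TBI it was found in 1.17% of 257 T cell-like cells. Median depths of this class were 3520.5 UMIs in Sham and 3234 in TBI. Before thinning, at least 1 member was found in 66.9% of Sham and 77.3% of TBI macrophage-like cells, and after thinning in 51.9% and 56.7%.

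Inside the macrophage-like class, the members varied between clusters. A cluster led by Folr2, Cd209f and Fcrls held 121 Sham and 324 TBI cells, and a cluster led by Cx3cr1, Slamf9 and Klra2 held 107 and 259. The latter had 1 macrophage and 1 monocyte marker among its 10 leading genes. A shallow cluster led by Hpgds, Ccl8 and Cd209g held 134 and 197 cells with a median of 907 UMIs. The clusters come from the same cells, so differences between them are descriptions.

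Tlr7 was higher in the Folr2 cluster, at 63.9 CPM (53.9 to 75.1) against 31.3 CPM (24.7 to 39.2) in the Cx3cr1 cluster over both libraries. Tlr4 had the same order, 42.4 CPM (34.4 to 51.8) against 25.6 CPM (19.7 to 32.8). Tlr9 had the opposite order, 17.5 CPM (12.5 to 23.8) against 35.4 CPM (28.4 to 43.7). For Nlrp3, Casp1 and Pycard the intervals of the 2 clusters overlapped. Cd14 stood at 406 CPM and 364 CPM in them and at 169 CPM (131 to 214) in the shallow cluster.

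Between TBI and Sham within clusters, Tlr4 in the Folr2 cluster had a log2 ratio of -0.75 (-1.36 to -0.11), from 60.4 CPM (36 UMIs) in Sham to 36.1 CPM (61 UMIs) in TBI. In the Cx3cr1 cluster the ratio of Tlr4 was -0.17 (-0.93 to 0.66), and whether the 2 ratios differ was not tested. Pycard in the Folr2 cluster gave -0.36 (-0.68 to -0.04), and Cd14 in the Cx3cr1 cluster gave 0.25 (0.04 to 0.46). These were the 3 of 30 ratios over the clusters whose intervals left out 0. No share of all genes stands beside this count, so it is only a description.

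**Figure D4:**
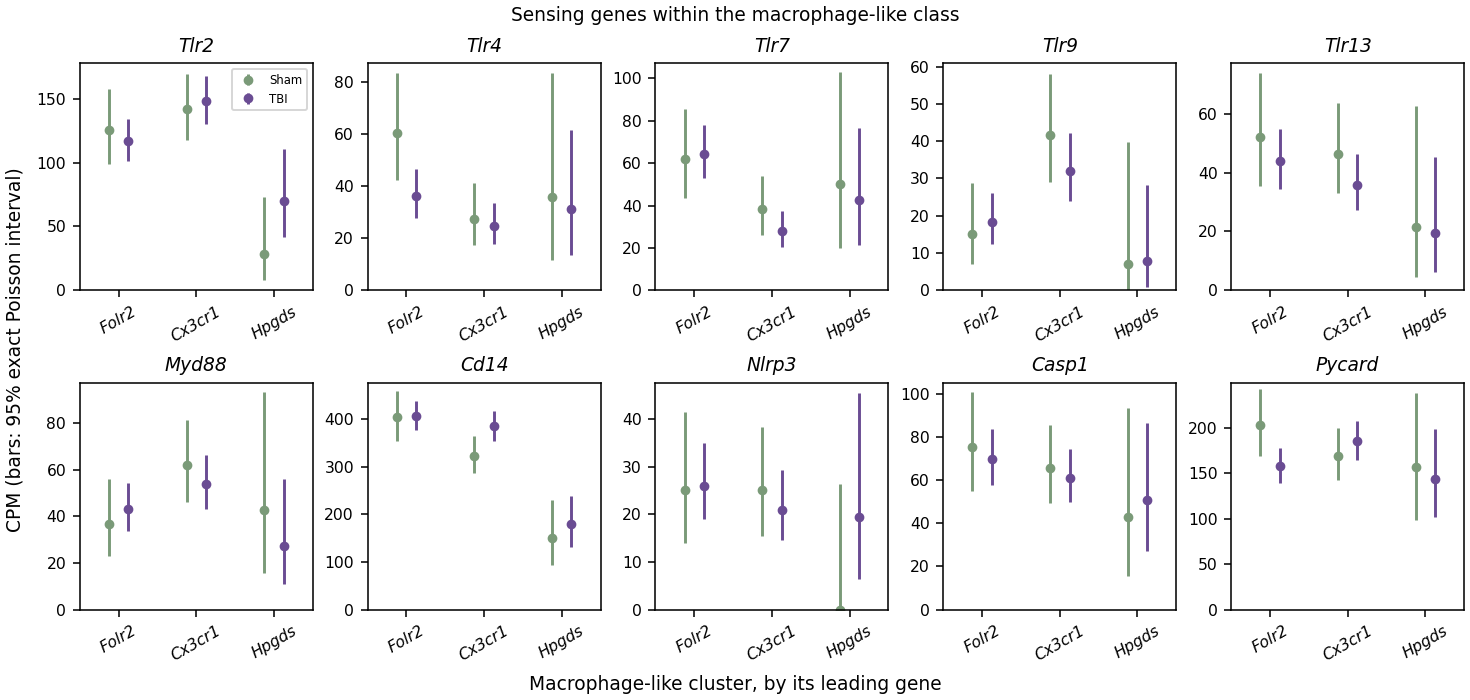
CPM of each sensing gene (vertical axis, own scale per panel) in the 3 macrophage-like clusters named by leading gene (horizontal axis), Sham in green and TBI in purple, with 95% exact Poisson intervals. Tlr7 and Tlr4 lie higher in the Folr2 than in the Cx3cr1 cluster, and Tlr9 lower, in both libraries.

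In dendritic-like cells, 161 in Sham and 247 in TBI, 9 members met the minimum of UMIs. Of them 0 were past 1.5-fold higher (background 8.42%) and 1 was past 1.5-fold lower (background 5.64%), and their median log2 ratio was -0.31, beside 0.02 for all genes. The member past the fold was Tlr4, with 15 UMIs in Sham and 9 in TBI and an interval of -2.35 to 0.31, and it was not counted with a minimum of 50 UMIs. Pycard stood at 229 CPM (205 to 256) in Sham and 187 CPM (167 to 208) in TBI, giving a log2 ratio of -0.30 (-0.53 to -0.07). Macrophage markers, all 15 of which were detected in both libraries, summed to 761 CPM in Sham and 531 CPM in TBI in this class, and their part in these ratios was not tested.

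The class held a small set of cross-presenting dendritic-like cells, 16 in Sham and 49 in TBI, found by clustering the class anew, led by Cxcl9 and Snx22 and with 6 markers, Xcr1 and Clec9a among them. Of the other dendritic-like cells, a cluster of 48 Sham and 73 TBI cells had 3 macrophage markers among its leading genes, and its part in the values below was not tested. In the cross-presenting cells Pycard was lower, at 140 CPM (112 to 173) against 223 CPM (205 to 242) in the other dendritic-like cells over both libraries, and Casp1 was lower too, at 30.6 CPM (18.4 to 47.7) against 57.9 CPM (48.8 to 68.1). Of the genes outside the members, Tlr3, the receptor for double-stranded RNA, stood at 135 CPM (108 to 167) in the cross-presenting cells and at 6.38 CPM (3.65 to 10.4) in the other cells. Tlr11 and Tlr12, receptors for a parasite protein, stood at 65.9 CPM and 38.6 CPM in the cross-presenting cells against 14.8 CPM and 0.798 CPM. The clustering anew left out only the 10 members. Tlr3, Tlr11 and Tlr12 could thus have helped to place these cells, and their levels here are descriptions.

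The share of these cells stood beside the ratios of the other receptors: 16 of 161 dendritic-like cells in Sham and 49 of 247 in TBI. In the whole dendritic-like class Tlr3 had a ratio of 1.33 (0.68 to 2.06) and Tlr11 of 0.83 (0.13 to 1.59). Tlr12, with 9 UMIs in Sham and 17 in TBI, had a ratio of 0.64 (-0.57 to 2.03), an interval that includes 0. These 3 of the 4 other Toll-like receptors measured there were past 1.5-fold higher, beside 8.42% of 8442 genes. Within the cross-presenting cells the ratio of Tlr3 was 0.05 (-0.65 to 0.85) and that of Tlr11 -0.01 (-1.01 to 1.17). In the other dendritic-like cells Tlr3 had 3 UMIs in Sham and 13 in TBI, with a ratio of 1.98 (0.28 to 4.595), and Tlr11 had 14 and 23, with a ratio of 0.72 (-0.28 to 1.82). Tlr9 in those other cells had 32 UMIs in Sham and 16 in TBI, giving a ratio of -0.95 (-1.94 to -0.06), while in the cross-presenting cells it had 2 and 15.

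**Figure D5:**
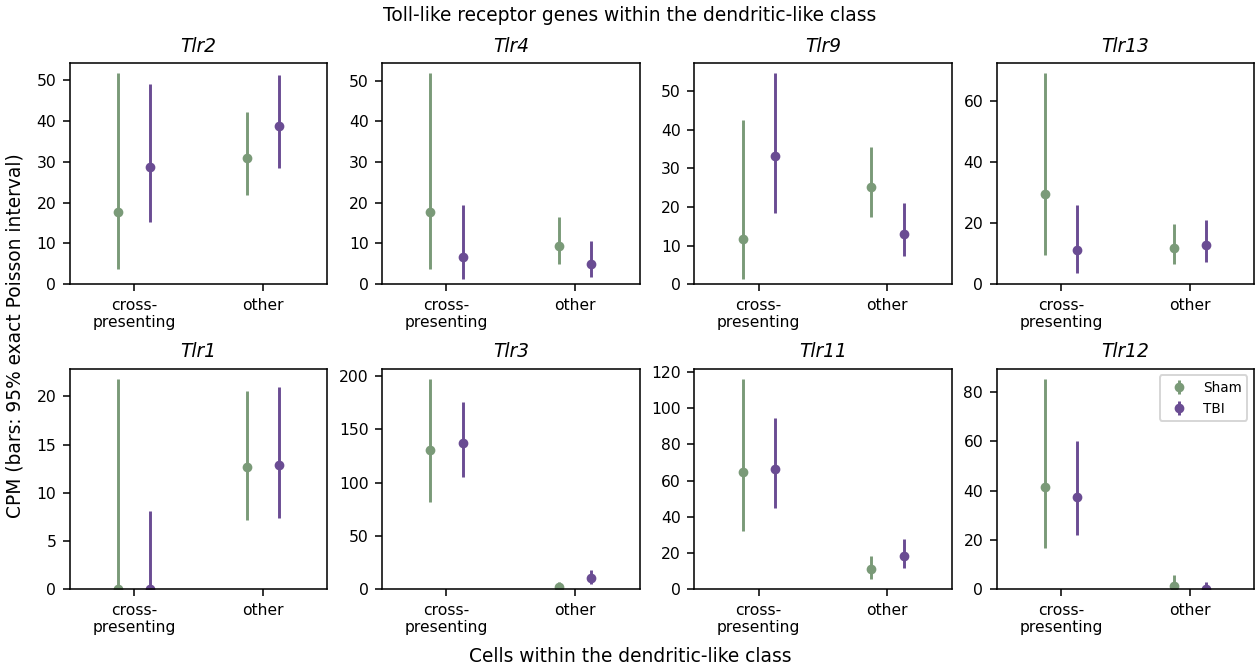
CPM (vertical axis, own scale per panel) of Toll-like receptor genes in the cross-presenting and the other dendritic-like cells (horizontal axis), Sham in green and TBI in purple, with 95% exact Poisson intervals. Tlr3, Tlr11 and Tlr12 lie higher in the cross-presenting cells in both libraries, at 135, 65.9 and 38.6 CPM over both.

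In fibroblast-like cells 4 members met the minimum, with 0 past 1.5-fold higher (background 12.7%) and 0 lower (background 15.4%). Pycard stood at 37.5 CPM (18.0 to 69.0, 10 UMIs) in Sham and 57.1 CPM (46.2 to 69.8, 95 UMIs) in TBI. Macrophage markers in this class summed to 105 CPM in Sham, with 6 of 15 detected and Csf1r, Mrc1 and Pf4 among those at 0, and to 874 CPM in TBI, with 15 of 15 detected, and without predicted doublets the sums were 114 and 184 CPM. The ratio of Pycard was 0.54 with all cells and 0.31 without predicted doublets.

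In endothelial-like cells 5 members met the minimum, with 2 past 1.5-fold higher (background 10.2%) and 0 lower (background 7.18%). Tlr2 went from 5 to 20 UMIs, 8.51 to 16.6 CPM, a ratio of 0.86 (-0.50 to 2.73). Pycard went from 6 to 21 UMIs, 10.2 to 17.4 CPM, a ratio of 0.69 (-0.59 to 2.37). Both intervals include 0, and with a minimum of 50 UMIs neither gene was counted. Macrophage markers summed to 289 CPM in Sham, with 9 of 15 detected, and to 681 CPM in TBI, with 15 of 15 detected, and without predicted doublets the ratio of Pycard was 0.45. The part of macrophage RNA in these values was not tested.

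In B cell-like cells 5 members met the minimum, with 0 past 1.5-fold higher (background 8.22%) and 0 lower (background 7.02%). Pycard was 164 CPM (141 to 189, 184 UMIs) in Sham and 119 CPM (96.7 to 145, 98 UMIs) in TBI, giving a ratio of -0.46 (-0.83 to -0.10). Tlr9 had a ratio of -0.14 (-0.77 to 0.46), and Casp1 gave -0.33 (-1.10 to 0.39). In this class macrophage markers summed to 98.0 CPM (11 of 15 detected) in Sham and 305 CPM (14 of 15) in TBI, and immature B cell markers to 1669 CPM (6 of 9) and 1524 CPM (7 of 9), and their part in these values was not tested.

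Over the whole filtered libraries the picture was set beside the class makeup. Tlr9 stood at 21.0 CPM (17.9 to 24.4) in Sham and 13.1 CPM (11.2 to 15.1) in TBI, giving a ratio of -0.68 (-0.996 to -0.37), larger than in any of the B cell-like, dendritic-like and macrophage-like classes that held most of it. B cell-like cells were 17.9% of Sham and 7.69% of TBI cells. Cd14 went from 74.2 CPM (68.3 to 80.5) to 106 CPM (100.3 to 111), a ratio of 0.51 (0.37 to 0.65), against 0.17 within macrophage-like cells, which were 17.7% and 20.7% of cells. From a library sum alone, more cells of a type and more RNA per cell cannot be told apart. By class, macrophage-like cells held 1574201 of the 7866611 Sham UMIs and 3565713 of the 13940740 TBI UMIs. Their median depth was 2235.5 UMIs in Sham and 3927.5 in TBI, with 134 and 197 of these cells in the shallow cluster. Within clusters the Sham and TBI medians were 4358 and 4747.5 (Folr2), 7555 and 6184 (Cx3cr1), and 812.5 and 966 (shallow). The part of cell numbers and of depth in the library ratios was not tested.

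Small classes rest on few UMIs. In plasmacytoid dendritic-like cells, known for sensing viral RNA through TLR7, Tlr7 had 1 UMI in 1 of 20 Sham cells and 26 UMIs in 20 of 45 TBI cells, a log2 ratio of 3.26 (1.21 to 9.17). Of the TBI cells with a UMI, 1 was a predicted doublet. Median depth was 7692 UMIs in Sham and 6161 in TBI. After thinning, 0 of 19 Sham cells had a Tlr7 UMI, which allows up to 15.8% by a limit of 3 cells. Of 44 thinned TBI cells, 13.6% (5.17 to 27.4) had a Tlr7 UMI. In the same class Tlr9 had 7 UMIs in Sham and 11 in TBI, and Myd88 8 and 20. Of 3 measured members in this class 1 was past 1.5-fold higher and 0 lower, beside 455 and 308 of 3239 genes. Macrophage markers there were at 3 of 15 detected (61.0 CPM) in Sham and 8 of 15 (129 CPM) in TBI, the C1q genes having 0 UMIs in Sham and 4 in TBI. B cell markers there were at 3 of 11 detected (2156 CPM) in Sham and 11 of 11 (2890 CPM) in TBI, and the part of either list in the Tlr7 values was not tested. In T cell-like cells Tlr7 had 0 UMIs in Sham and 1 in TBI.

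Casp1 gave unequal values over the lymphoid and monocyte-like classes. T cell-like cells had 62.8 CPM (45.1 to 85.2, 41 UMIs) in Sham and 35.8 CPM (24.9 to 49.8, 35 UMIs) in TBI, giving a ratio of -0.81 (-1.50 to -0.12). NK-like cells had 19 UMIs in Sham and 6 in TBI, giving a ratio of -1.17 (-2.86 to 0.14). Monocyte-like cells had 7 UMIs in Sham and 19 in TBI, giving a ratio of 1.12 (-0.13 to 2.68). Of these 3 intervals, that of the T cell-like class left out 0. In monocyte-like cells 3 of 6 measured members were past 1.5-fold higher and 0 lower, beside 314 and 297 of 2586 genes. Besides Casp1 these were Tlr2 at 0.70 (-0.56 to 2.18) and Myd88 at 0.71 (-0.48 to 2.08). In T cell-like cells 0 of 3 were higher and 1 lower, beside 648 and 571 of 7444 genes. NK-like cells had 0 of 2 higher and 1 lower, beside 346 and 384 of 3416 genes. Macrophage markers summed to 26.0 CPM in Sham and 329 CPM in TBI in T cell-like cells (24.8 and 89.7 CPM without predicted doublets), to 16.0 and 64.1 CPM in NK-like cells and to 3627 and 2080 CPM in monocyte-like cells, and their part in the Casp1 values was not tested.

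The other genes of the pathway were counted by list in macrophage-like cells, where 7.55% of 9807 genes were past 1.5-fold higher and 4.68% lower. Of the other Toll-like receptors 0 of 6 measured, of the receptor partners and chaperones 0 of 7, of the adaptors and kinases 0 of 15, of the transcription factors 0 of 7 and of the other inflammasome sensors 0 of 8 were past 1.5-fold in either direction. Unc93b1, which brings TLR7, TLR9 and TLR13 to endosomes, gave 0.28 (0.20 to 0.36). Of the negative regulators 2 of 6 were lower (background 4.68%) and 0 higher. Tnfaip3, the ubiquitin-editing brake on this signalling, went from 17.8 CPM (28 UMIs) to 7.29 CPM (26 UMIs), a ratio of -1.28 (-2.11 to -0.46). Its partner Tnip1, with 66 UMIs in Sham and 99 in TBI, gave -0.60 (-1.06 to -0.12).

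Of the inflammasome partners and effectors 1 of 12 was past 1.5-fold higher (background 7.55%) and 0 lower (background 4.68%). It was Il1b, with 75.0 CPM (118 UMIs) in Sham and 127 CPM (452 UMIs) in TBI. Its ratio was 0.75 (0.46 to 1.06). Gsdmd, the pore protein that caspase-1 opens, gave -0.35 (-0.65 to -0.04). Monocyte markers in macrophage-like cells, all 10 detected in both libraries, summed to 550.1 CPM in Sham and 356 CPM in TBI, and their part in these values was not tested. Neutrophil markers in macrophage-like cells summed to 18.4 CPM (5 of 11 detected, Ly6g and Cxcr2 at 0) in Sham and 27.8 CPM (8 of 11) in TBI, and their part in the Il1b values was not tested. Of the induced targets 2 of 6 were higher (background 7.55%), both chemokine genes. Ccl4 went from 15.9 to 69.6 CPM, a ratio of 2.11 (1.53 to 2.79). Ccl3 went from 5.72 to 14.3 CPM, a ratio of 1.26 (0.29 to 2.53). NK markers in macrophage-like cells summed to 0.635 CPM (1 of 11 detected) in Sham and 19.1 CPM (9 of 11) in TBI, Ccl4 being at 3643 CPM in NK-like cells, and their part in the chemokine values was not tested.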

How the data were processed

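The deposited values are counts of UMIs per gene and barcode, which the authors made from 10x Genomics 3′ v2 libraries with Cell Ranger on mm10. The submitters' processing notes name version 2.1.1 and the matrix headers 3.1.0. Barcodes had been called as cells by that software, and values were not normalized. Here, cells with 150 to 5000 genes, at most 20% mitochondrial and at most 5% hemoglobin UMIs were kept. Counts scaled to 10000 per cell and log-transformed, 2000 variable genes without the 10 members, 20 principal components and a shared graph of 20 neighbours were clustered by Leiden (leidenalg 0.10.2, resolution 0.8, seed 1). Naming a cluster took 3 or more of a class's markers among its 100 leading genes. Doublets were the cells nearest to simulated ones, as many as a rate of 0.8% per 1000 cells gives (33 Sham, 114 TBI), and were left in. The 10 members were not left out of the genes used for this prediction. UMIs were summed by class and library in Python 3.11.15 with numpy 2.4.6, pandas 2.3.3 and scipy 1.17.1, giving CPM with exact Poisson intervals and ratios with exact binomial intervals, with no test. Ratios were checked on simulated counts that held only the counting error the intervals assume, with no spread between cells or mice. Genes outside the members were named where they had at least 50 UMIs in the class and were among the 3 largest ratios in either direction, or the 3 highest levels, of their list, or had the most similar order. Tlr12 in dendritic-like cells, with 9 UMIs in Sham and 17 in TBI, was under that minimum and was named beside Tlr3 and Tlr11. The ratios followed within cross-presenting cells were chosen after their values were seen. Alternatives were 11 planned and 3 added later. Members, gene lists and markers were chosen with earlier results of these data known. PCR duplicates were already collapsed to UMIs, and intervals cover counting error only, so they understate the error between mice.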

Additional observations from a re-analysis of the deposited data

Results flagged for a closer look

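Barcodes outside the filters, which no comparison in the main setting used, still held UMIs of the 10 sensing genes. In Sham 656 such barcodes held 44 of these UMIs, or 26.5 CPM against 429 CPM in the cells kept, and in TBI 576 held 131, or 122 CPM against 411 CPM. Cd14 alone gave 1 of the Sham and 76 of the TBI UMIs, and without it the sums were 25.9 and 51.4 CPM. For 1 gene, 3 counts would give 1.81 CPM in Sham and 2.80 CPM in TBI. In Sham Pycard alone gave 24 UMIs (14.5 CPM), and every other member stood at or below 1.81 CPM. In TBI Tlr7, Tlr9, Tlr13 and Nlrp3 stood at or below 2.80 CPM. Of these barcodes, 604 in Sham and 431 in TBI were over the hemoglobin limit. All 10 genes had at least 1 UMI there in both libraries.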

How the results depend on the processing

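No paired analysis was possible because each group was 1 library. Of 408 values recomputed for 35 results, 397 moved by less than their counting interval and 11 moved further. Of the 11, 10 came with each cell thinned to 1000 UMIs, where 25 stayed within their interval. The other came as a mean over cells. A gene's ratio does not depend on the minimum of UMIs. The 35 values at a minimum of 50 UMIs and the 35 without a minimum are thus a weak check. A value that stayed within an interval spanning 0 could still change direction. In macrophage-like cells the median log2 ratio of the members ranged from -0.17 to -0.01. The counts of members past 1.5-fold changed as follows, and the causes were not tested. The shares of all genes given above are for the main setting only. The counts below have no such share beside them and are not read as results on the members. With each cell thinned to 1000 UMIs, macrophage-like cells had 1 higher (Tlr2) and 1 lower (Tlr9), B cell-like cells 1 lower, dendritic-like cells 0 lower and endothelial-like cells 0 higher. As means over cells, macrophage-like cells had 1 lower (Tlr4), dendritic-like cells 3 higher and 3 lower, fibroblast-like cells 2 lower and endothelial-like cells 1 higher. Without a minimum of UMIs, fibroblast-like cells had 2 higher and 2 lower and B cell-like cells 2 higher. With a minimum of 50 UMIs, dendritic-like cells had 0 lower and endothelial-like cells 0 higher. With cells assigned by their own markers, fibroblast-like cells had 1 higher and 1 lower, dendritic-like cells 0 lower and endothelial-like cells 0 higher. At resolutions 0.4 and 1.6, fibroblast-like and endothelial-like cells had 1 higher each. With median-ratio size factors, or with the unnamed Snhg11 cluster joined, fibroblast-like cells had 1 higher. Without predicted doublets, or without the hemoglobin limit, endothelial-like cells had 1 higher. Leaving out the shallow macrophage-like cluster or the cross-presenting cells, and joining the Snhg11 cluster, were chosen after seeing the data. With 1 pool a group, no error between mice is known, and genes under 20 UMIs in a class could not be compared.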
